A study of Mus musculus with 19 samples.

Results

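The change from 24 h to 96 h of culture was followed across all genes in mouse hepatic stellate cells (HSCs), as the 3 samples at 96 h (4 days) against the 2 samples at 24 h, that is 5 of the 19 samples of the series. Every sample held HSCs from male mice of the Balb/c strain, healthy and untreated and at an age of 23-24 weeks, picked by their ultraviolet positivity, which comes from stored vitamin A. The cells were sorted straight into collagen-coated 24-well plates and kept in Dulbecco's modified Eagle's medium with 10% fetal bovine serum, with fresh medium at 3 h and at 24 h. The labels give each sample as 2 technical repeats and tie replicate numbers to isolation dates, with replicates 1 and 3 from 1 date and replicate 2 from another. No sample at 24 h carried the number 3. The medium change at 24 h lies between the 24 h and 96 h samples, so its part in any difference cannot be told apart from that of time.

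HSCs are the vitamin A-storing pericytes of the liver sinusoid. On injury or on culture plastic they leave this quiescent state: an initiation phase of stress, growth and inflammatory signals is followed by perpetuation, in which the cells become myofibroblasts that contract, divide and lay down collagen-rich matrix. The comparison asks what is added, lost or regained during days 2 to 4.

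The 5 libraries held 3389083 to 6979382 counts, and 3 counts stood for 0.386 to 0.86 CPM (counts scaled to a common library size by TMM factors). Pearson's r of log2 CPM across genes was 0.844 within 24 h and 0.822 to 0.868 within 96 h, against 0.763 to 0.815 between the time points, and genes are not independent replicates. Mitochondrially encoded genes took 4.07% and 4.34% of counts at 24 h and 5.54% to 6.09% at 96 h. Libraries were made from RNA 3' ends, so CPM compare samples for 1 gene and are not a measure of level per length between genes. All 5 samples held stellate cell transcripts: 20 stellate markers, some of them matrix genes described here, summed to 3224 and 3376 CPM at 24 h and to 5648 to 6301 CPM at 96 h. Gfap and Ngfr, neural-type markers of quiescent HSCs, were at 0 in all 5.

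Of 15138 genes tested, 207 were higher and 204 were lower at 96 h (edgeR quasi-likelihood test, with fold changes of more than 2 and a Benjamini-Hochberg adjusted p under 0.1), which is 1.37% and 1.35% of all genes tested and 2.72% together. Samples of the time points did not overlap for 206 of the 207 and 202 of the 204, against 15.9% and 16% of all tested genes that lay wholly higher or wholly lower. Within replicate 1 alone and within replicate 2 alone, 206 of the higher and 202 of the lower genes moved in their called direction. Both sets of counts come from the libraries that gave the calls, so they describe the called genes and are no separate support. The median log2 fold change of all tested genes was 0. Scaling by library size alone gave 171 higher and 293 lower genes, so that 36.9% of calls were higher in place of 50.4%, and the median log2 fold change of genes above 10 CPM was -0.144 in place of -0.0176. Counts of called genes are those of edgeR unless DESeq2 is named. The shares called over all genes tested, 1.37% higher and 1.35% lower, are the background for every list count below. A single called member of a short list is no result about that list. Leaving out 1 library lowered the number of genes called at 96 h against 24 h in each case, to 270 without replicate 1 and 124 without replicate 2 of 24 h. It was 329, 347 and 283 without replicates 1, 2 and 3 of 96 h. Of the called genes, 49 higher and 51 lower ones were called again whichever of the 5 libraries was left out. By contrast, 35 higher and 20 lower ones were called in none of those 5 fits.

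**Figure D1:**
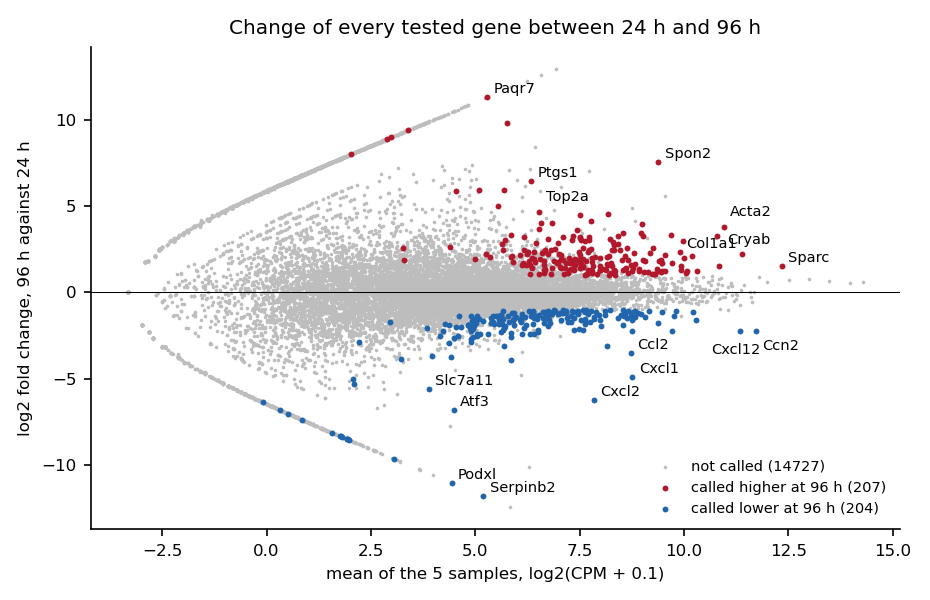
Each point is 1 of the 15138 genes tested, with the mean level of the 5 samples, log2(CPM + 0.1), on the x axis and the fitted log2 fold change of 96 h against 24 h on the y axis. The 207 genes called higher (red) and 204 called lower (blue) lie mostly at middle and high levels, and the curved edges on the left are genes at 0 in 1 of the time points.

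Genes of the contractile apparatus were among the largest rises. Acta2, the smooth muscle actin by which myofibroblasts are recognised (ENSMUSG00000035783, GRCm38 chromosome 19, 34241090 to 34255590, minus strand), stood at 314 and 144 CPM in replicates 1 and 2 at 24 h and at 3231, 2284 and 3992 CPM in replicates 1 to 3 at 96 h. The lowest 96 h sample was far above the higher 24 h sample, and the log2 fold change was 3.79 ± 0.49 (SE, edgeR adjusted p = 0.00045). Uncultured cells held 94.6 ± 60.8 CPM (SD, n = 2). Myl9, the regulatory light chain of smooth muscle myosin, went from 91.6 and 54.6 CPM to 747, 788 and 838 CPM (log2 fold change 3.44 ± 0.56, adjusted p = 0.00312). Tpm2, a tropomyosin that lies along actin filaments, went from 38.6 and 21.5 CPM to 219, 313 and 200 CPM (3.02 ± 0.40, adjusted p = 0.000475). The fourth gene called was Mylk, the kinase that phosphorylates the light chain, with a log2 fold change of 2.17 ± 0.30 and an adjusted p of 0.000688.

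The other 16 of the 20 contractile genes tested were not called, and the list's median log2 fold change was 0.73. Tagln, which binds actin filaments, was already at 859 and 978 CPM at 24 h and was at 1028, 1044 and 934 CPM at 96 h, so that its time points overlapped (0.13 ± 0.37, adjusted p = 1). It was at 198 CPM on average in uncultured cells and at 1229 CPM at 18 h. Without replicate 2 of 24 h, 3 contractile genes were called, since the adjusted p of Myl9 was then 0.1. Of 23 genes of the cytoplasmic actin cytoskeleton and focal adhesions, 1 was higher and 2 were lower. Tmsb10, which holds actin monomers, rose by 1.29 ± 0.34 (adjusted p = 0.0634), while Tns3, which ties integrins to actin, fell by 1.09 on the log2 scale (SE 0.31, adjusted p = 0.087). Neither was called without replicate 2 of 24 h.

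**Figure D2:**
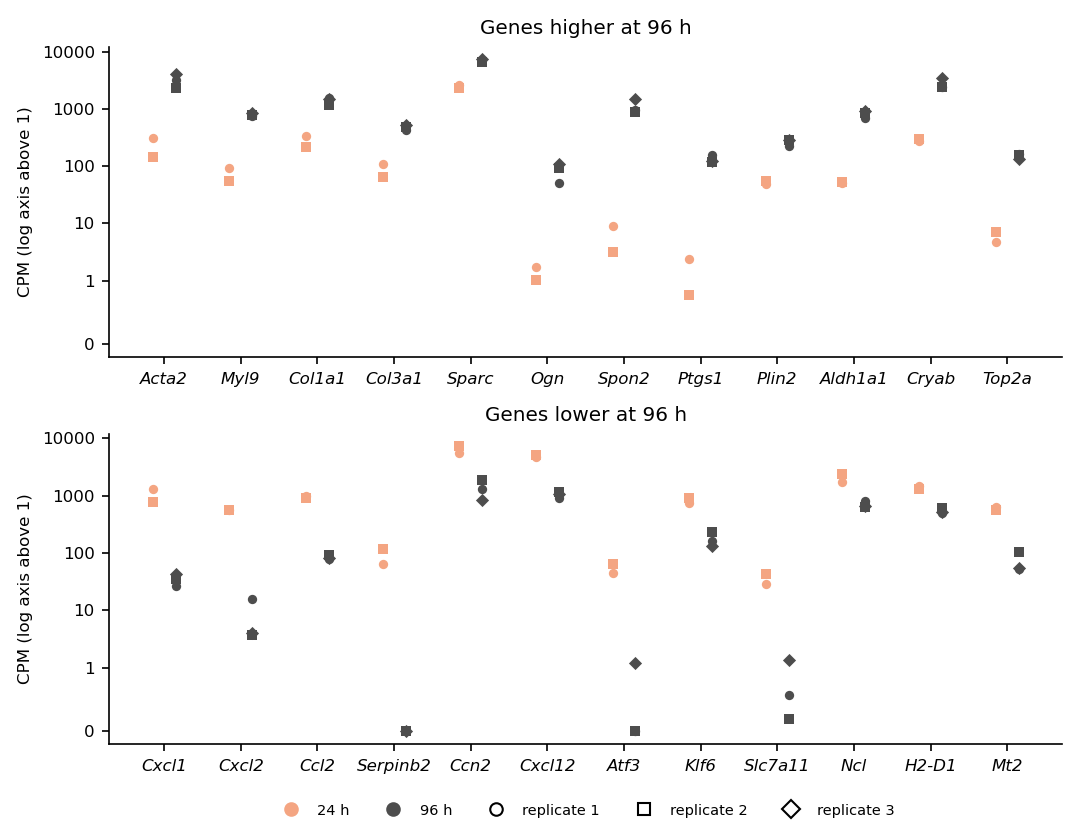
TMM-scaled CPM of 12 genes that were higher and 12 that were lower at 96 h, on an axis that is logarithmic above 1 CPM, with 1 point per sample (orange 24 h, dark grey 96 h, shape for the replicate number). No gene shown has samples of the time points that overlap, and Serpinb2 is at 0 in all 3 samples at 96 h.

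Collagens of the interstitial matrix were next. Of 15 tested, 5 were higher and none was lower (median log2 fold change 2.01), and without replicate 2 of 24 h 2 were called. Col1a1, which encodes the alpha 1 chain of type I collagen, the main fibre of scar, was at 334 and 220 CPM at 24 h and at 1570, 1163 and 1502 CPM at 96 h (2.35 ± 0.40, adjusted p = 0.004). Col1a2, its partner chain, went from 82.2 and 86.3 CPM to 516, 382 and 491 CPM (2.46 ± 0.40, adjusted p = 0.00313). Col3a1, the chain of type III collagen, went from 109 and 64.3 CPM to 424, 486 and 530 CPM (2.48 ± 0.39, adjusted p = 0.00255). The starting points differed: uncultured cells held 304 ± 202 CPM of Col1a1, 631 ± 92.1 of Col1a2 and 1999 ± 95.5 of Col3a1 (SD, n = 2). The 96 h level of Col1a1 was therefore above the mean of uncultured cells and that of Col3a1 below it. Col8a1, a short-chain collagen of vessel walls, had the largest rise of the list, from 72.3 and 35.6 CPM to 551, 548 and 656 CPM (3.44 ± 0.60, adjusted p = 0.00467). Col14a1, which coats collagen fibrils, was the fifth, with a log2 fold change of 1.28 and an adjusted p of 0.00928. Col1a1 and Col8a1 had adjusted p values of 0.14 and 0.15 without replicate 2 of 24 h. None of the 14 basement membrane genes was called by edgeR in either direction (median 0.45), whereas DESeq2 called 2 higher and 1 lower.

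Among enzymes that prepare collagen, P4ha1 and P4hb, the subunits of the prolyl hydroxylase that stabilises the triple helix, were the 2 of 22 members called by edgeR (4 by DESeq2, and 7 by edgeR on the 5 samples alone). P4ha1 went from 71.2 and 90 CPM to 242, 264 and 261 CPM (1.67 ± 0.29, adjusted p = 0.00531) and P4hb from 335 and 388 CPM to 731, 759 and 782 CPM (1.07 ± 0.24, adjusted p = 0.0264). Neither was called without replicate 1 of 24 h (adjusted p = 0.11 and 0.25). Small leucine-rich proteoglycans, which space and organise collagen fibrils, had 4 of 8 members higher and none lower (median 1.73). Ogn was at 1.72 and 1.03 CPM at 24 h and at 51.3, 93.5 and 110 CPM at 96 h (5.94 ± 1.31, adjusted p = 0.0249), with an adjusted p of 0.17 without replicate 1 and 0.37 without replicate 2 of 24 h. Prelp, which anchors basement membrane to connective tissue, went from 89.3 and 38.4 CPM to 588, 451 and 397 CPM (2.91 ± 0.41, adjusted p = 0.000731). Lum went from 18.4 and 5.79 CPM to 61.4, 53.3 and 50.9 CPM (2.20 ± 0.63, adjusted p = 0.0955), and its adjusted p was 0.84 without replicate 2 of 24 h. Bgn was the fourth, with a log2 fold change of 1.23 ± 0.21 and an adjusted p of 0.00379. Prelp and Lum had averaged 1717 ± 171 and 517 ± 101 CPM in uncultured cells (SD, n = 2), above every sample at 96 h. Ogn had averaged 19.7 ± 13.6 CPM in uncultured cells.

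Among 16 genes of the provisional matrix and matricellular proteins, 3 were higher and 1 was lower. Sparc, a collagen-binding secreted protein, was at 2596 and 2305 CPM at 24 h and at 7247, 6552 and 7300 CPM at 96 h (1.52 ± 0.16, adjusted p = 5.64e-05). The elastic fibre genes Emilin1 and Fbln5 rose by 3.05 ± 0.75 (adjusted p = 0.0465) and 2.21 ± 0.31 (adjusted p = 0.000763), and the adjusted p of Emilin1 was 0.57 without replicate 2 of 24 h. Ccn2, a matricellular gene long used as a readout of YAP and TGF-beta activity, went the other way, from 5633 and 7272 CPM to 1320, 1902 and 834 CPM, and fell by 2.25 on the log2 scale (SE 0.41, adjusted p = 0.0067). Its highest 96 h sample stood below both samples at 24 h and above the mean of uncultured cells, 249 ± 190 CPM (SD, n = 2). The fall of Ccn2 was not shared by YAP/TEAD target genes as a list. Of 23 tested, 1 was higher and 1 was lower (median 0.07). Samples did not overlap for 9 that lay higher and 6 that lay lower. Fn1, Postn, Vcan and Thbs1 did not pass the test, with log2 fold changes of -0.37, 1.54, -0.67 and 0.52. Of 20 matrix proteases and inhibitors, 4 were higher and none was lower (median 1.32). Mmp13, a collagenase, went from 60.9 and 89 CPM to 346, 661 and 570 CPM (2.81 ± 0.56, adjusted p = 0.0121). The aggrecanases Adamts5 and Adamts1 rose by 2.31 ± 0.59 (adjusted p = 0.0557) and 1.28 ± 0.33 (adjusted p = 0.0607), and Timp2, a metalloproteinase inhibitor, by 1.15 ± 0.22 (adjusted p = 0.00956). No member of this list was called without replicate 1, nor without replicate 2, of 24 h. Timp1 was higher in every 96 h sample, at 165, 170 and 264 CPM against 65 and 29.9 CPM, with an adjusted p of 0.519. Itga1, the alpha chain of a collagen receptor, was the 1 of 14 integrin subunits called (1.27 ± 0.30, adjusted p = 0.0394), and not without either sample of 24 h.

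The largest rises over all genes included several with no place in these lists. Spon2, a secreted matrix protein (ENSMUSG00000037379, GRCm38 chromosome 5, 33198184 to 33218455, minus strand), was at 9.01 and 3.21 CPM at 24 h and at 941, 890 and 1503 CPM at 96 h. Every 96 h sample stood above the 194 ± 1.78 CPM of uncultured cells (SD, n = 2), and the log2 fold change from 24 h was 7.53 ± 1.21 (adjusted p = 0.00267). Ptgs1, the constitutive cyclooxygenase of prostaglandin synthesis, went from 2.36 and 0.771 CPM to 157, 120 and 124 CPM (6.42 ± 0.98, adjusted p = 0.00176). Both calls held without any 1 of the 5 libraries. Ptgs1 had averaged 31.6 ± 8.49 CPM in uncultured cells (SD, n = 2). Akr1b3, aldose reductase, went from 19.7 and 20.7 CPM to 374, 270 and 405 CPM (4.11 ± 0.51, adjusted p = 0.000319).

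A pair of steroid-sensing membrane receptors was also higher. Paqr7, a membrane progestin receptor, had no count in either 24 h sample and was at 72.8, 53.3 and 69.2 CPM at 96 h, at least 127-fold higher with 3 counts per library as the floor (edgeR adjusted p = 0.0809). Gper1, the G protein-coupled estrogen receptor, had 1 count in the 24 h samples together and was at 119, 68.5 and 82.2 CPM at 96 h, a ratio of 1070 with a 95% counting interval of 192 to 42400 (adjusted p = 0.0776). Neither was called when any 1 library was left out. Uncultured cells held 19.8 ± 6.76 CPM of Paqr7 and 1.00 ± 1.42 CPM of Gper1 (SD, n = 2), so Paqr7 was not absent before culture. Parm1 and Ankrd55 rose by 5.02 ± 0.96 (adjusted p = 0.00956) and 5.93 ± 1.35 (adjusted p = 0.0296), and Ndrg2, a growth-restraining gene, by 3.99 ± 1.09 (adjusted p = 0.0797). None of these 3 was called without replicate 2 of 24 h, and Ndrg2 was not called when any 1 library was left out. Parm1 and Ankrd55 had averaged 9.16 ± 4.09 and 9.41 ± 0.52 CPM in uncultured cells (SD, n = 2). Ndrg2 had averaged 172 ± 101 CPM there, near its mean of 183 CPM at 96 h.

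Some genes of vitamin A handling rose. Aldh1a1, which turns retinal into retinoic acid, went from 50.6 and 53.6 CPM to 693, 846 and 907 CPM (3.97 ± 0.55, adjusted p = 0.000738), above its 270 ± 0.282 CPM in uncultured cells. Of 16 retinoid genes 2 were called by edgeR, both higher (median 1.25), against 5 higher and 1 lower by DESeq2, and without replicate 2 of 24 h 1 was called. Lrat, the enzyme that esterifies retinol for storage, was at 10.3 and 11.4 CPM at 24 h and at 28.1, 32.7 and 35 CPM at 96 h (1.55 ± 0.86, adjusted p = 0.522), against a mean of 905 CPM in uncultured cells. Of 12 lipid droplet genes 2 were called, both higher, and 10 were not called (median -0.02). Plin2, a droplet coat protein, went from 48.1 and 55.1 CPM to 229, 283 and 287 CPM (2.37 ± 0.51, adjusted p = 0.0206), and Lpl, lipoprotein lipase, from 118 and 167 CPM to 553, 593 and 403 CPM (1.86 ± 0.25, adjusted p = 0.000558). Plin2 was not called without replicate 1 (adjusted p = 0.19) or replicate 2 (adjusted p = 0.24) of 24 h. The uncultured means were 203 ± 6.73 and 544 ± 18.4 CPM (SD, n = 2).

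Markers of quiescence did not move as a block: of 26 tested, 3 were higher and 4 lower, with a median of 0.05. Sod3, the extracellular superoxide dismutase, went from 25.5 and 15.4 CPM to 447, 311 and 655 CPM (4.53 ± 1.04, adjusted p = 0.0323), against 1882 ± 188 CPM in uncultured cells (SD, n = 2). Hgf, the hepatocyte growth factor, rose by 1.07 ± 0.26 (adjusted p = 0.043). Neither was called without replicate 2 of 24 h. Rgs5, a pericyte regulator of G protein signalling, fell further, from 146 and 202 CPM to 48.8, 40.8 and 63 CPM, a drop of 1.77 on the log2 scale (SE 0.20, adjusted p = 0.000142) from a level already far below its uncultured mean of 3707 CPM. Ntm, a neural adhesion molecule, fell by 1.78 (SE 0.30, adjusted p = 0.00421). Reln and Pdgfrb did not pass the test, with log2 fold changes of 0.22 and 0.16.

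**Figure D3:**
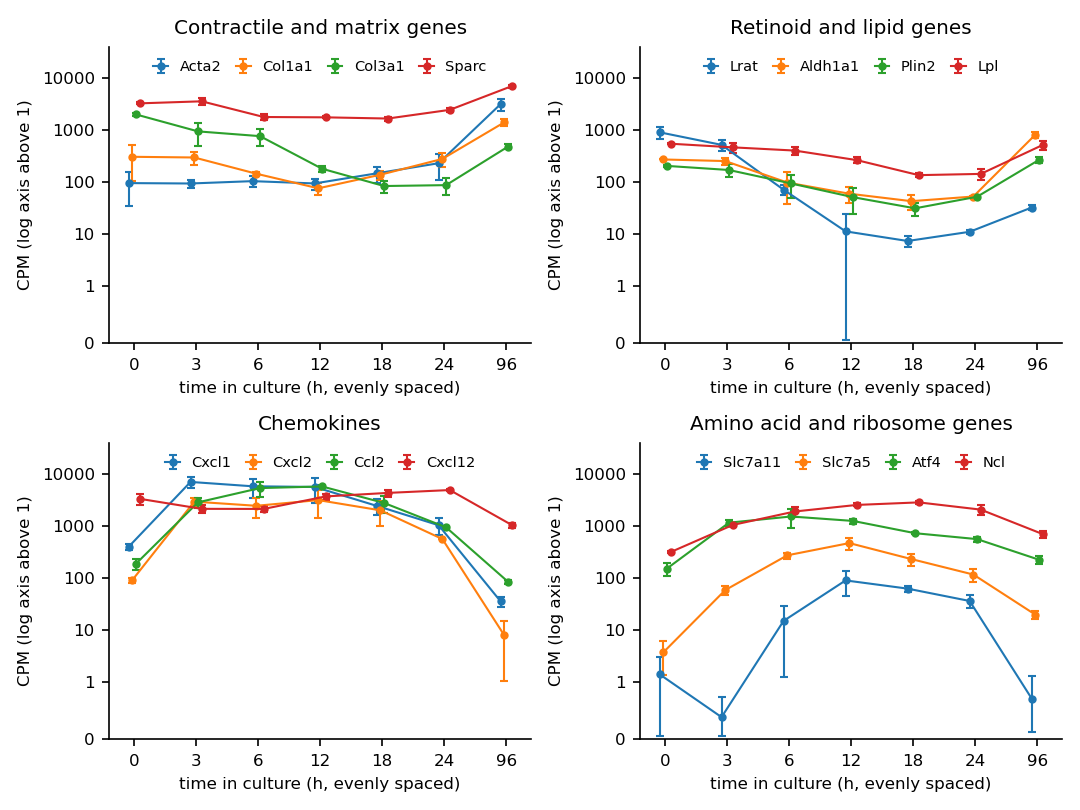
Mean CPM with SD (n = 2 at 0 h and 24 h, n = 3 at 96 h and the other times) of 16 genes at the 7 time points, which are evenly spaced on the x axis, with the y axis logarithmic above 1 CPM and lower bars ended at 0. Col3a1, Sparc, Lrat, Aldh1a1, Plin2 and Lpl have their lowest mean at 18 h and a higher one at 96 h. Col1a1 has its lowest mean at 12 h, and Acta2 has no low at 18 h to 24 h. Cxcl1, Cxcl2, Ccl2, amino acid transporters and Ncl are high at 12 h and lower at 96 h, while Cxcl12 is highest at 24 h.

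Mitosis genes lay higher at 96 h, though few passed the test. Of 31 mitosis genes tested, 24 had all 3 samples at 96 h above both samples at 24 h, against 15.9% of all genes tested. The list summed to 529 and 469 CPM at 24 h and to 1641, 1501 and 1487 CPM at 96 h. The median log2 fold change was 4.26 with genes at 0 in 1 time point set to the floor. Top2a, the topoisomerase that untangles chromosomes, was at 4.72 and 7.07 CPM at 24 h and at 164, 157 and 132 CPM at 96 h (4.67 ± 1.31, adjusted p = 0.0897). Cdk1, the kinase that drives entry into mitosis, had no count at 24 h and was at 88.6, 114 and 87.1 CPM at 96 h, at least 188-fold higher, with an adjusted p of 0.28. Mki67, the usual marker of dividing cells, had no count at 24 h and was at 31.8, 26.2 and 11.3 CPM at 96 h, at least 44.9-fold higher, with an adjusted p of 0.323. Cdk1 is named after its values were seen.

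With Hmgb2, a chromatin protein of dividing cells (1.76 ± 0.47, adjusted p = 0.0704), Top2a was 1 of 2 mitosis genes called, and neither was called when any 1 library was left out. The number of calls differed between fits. It was 6 by DESeq2 on all samples, 13 by edgeR on the 5 samples alone and 22 by DESeq2 on those 5, a fit chosen after the data were seen, and none was lower in any of these fits. Of 30 S phase genes none was called (0 by DESeq2 too, 6 higher with edgeR on the 5 samples), and the median was 1.73. Of these genes 18 were not overlapping and higher, against 15.9% of all genes tested. Ccnd1, the cyclin of the first gap phase, and Cdkn1a, the p53-induced brake on the cycle, had log2 fold changes of -0.53 ± 0.36 and -0.26 ± 0.28 that did not pass the test.

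The promoters of Top2a, Cdk1 and Mki67 are shown because these genes, at 7.07 CPM or less in both samples at 24 h, were higher in all 3 samples at 96 h. The letters CCAAT, and those of the cell cycle homology region, which are TTTGAA, are in capitals wherever they stand on either strand of the 150 bases before each start (RefSeq, GRCm38.p6, strand of the gene).
Top2a: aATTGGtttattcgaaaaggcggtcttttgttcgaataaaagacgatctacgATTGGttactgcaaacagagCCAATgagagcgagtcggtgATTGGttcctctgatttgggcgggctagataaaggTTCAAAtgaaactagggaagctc
Cdk1: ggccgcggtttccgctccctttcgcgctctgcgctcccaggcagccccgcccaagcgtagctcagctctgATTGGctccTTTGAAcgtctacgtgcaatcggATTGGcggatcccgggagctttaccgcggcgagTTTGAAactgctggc
Mki67: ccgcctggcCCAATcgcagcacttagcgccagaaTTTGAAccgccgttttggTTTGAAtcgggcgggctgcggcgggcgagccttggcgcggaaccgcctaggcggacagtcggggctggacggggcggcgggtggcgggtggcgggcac
These windows lie at chr11:99024190-99024339 (minus strand), chr10:69352913-69353062 (minus strand) and chr7:135716380-135716529 (minus strand). Top2a held 4 CCAAT matches and 1 TTTGAA match, Cdk1 2 of each, and Mki67 1 CCAAT and 2 TTTGAA matches. In the 250 bases before the start, CCAAT was found in 82.1% of the 28 mitosis genes with a promoter entry and TTTGAA in 39.3%, against 40.5% and 12.9% of the 9683 tested genes with an entry. Among the 164 genes called higher with an entry the shares were 38.4% and 13.4%, near those of all tested genes. The higher shares thus belong to the mitosis list and not to the genes called higher. A match is a string of letters and does not mark a used site.

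Genes of energy metabolism and of protein care rose in part. Of 19 glycolysis genes 4 were higher and none lower by edgeR (median 1.30), against 7 higher and 1 lower by DESeq2. Pgam1, phosphoglycerate mutase, rose from 69.1 and 62.6 CPM to 202, 198 and 234 CPM (1.68 ± 0.37, adjusted p = 0.0258). Ldha, lactate dehydrogenase, rose by 1.56 ± 0.28 (adjusted p = 0.00649), Gapdh by 1.33 ± 0.37 (adjusted p = 0.0799), and Pfkfb3, which makes an activator of glycolysis, by 1.05 ± 0.26 (adjusted p = 0.0449). Without replicate 1 of 24 h, and also without replicate 2, 1 of the list was called. Of 33 lysosome genes 4 were higher and none lower (median 0.86). Scarb2, a lysosomal membrane protein, went from 142 and 119 CPM to 549, 609 and 512 CPM (2.09 ± 0.29, adjusted p = 0.000688), and Ctsa, a lysosomal carboxypeptidase, and Grn, the progranulin gene, rose by 1.99 ± 0.36 (adjusted p = 0.00686) and 1.90 ± 0.54 (adjusted p = 0.0979). Ctsa was not called without replicate 1 of 24 h, and Grn was not called when any 1 library was left out. The fourth was Psap, whose product activates lysosomal lipid hydrolases. By edgeR no gene was called among 78 cytosolic ribosomal protein genes (median -0.22) and 63 nuclear respiratory chain genes (median 0.38), while DESeq2 called 3 of the latter higher and library size scaling 1 of the former lower.

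Cryab, a small heat shock protein that binds desmin and actin, was at 272 and 303 CPM at 24 h and at 2444, 2390 and 3421 CPM at 96 h (3.26 ± 0.45, adjusted p = 0.000688). Uncultured cells held 161 ± 4.41 CPM (SD, n = 2). Hspa4l, an HSP110 chaperone, went from 9.87 and 17.1 CPM to 308, 253 and 329 CPM (4.45 ± 1.06, adjusted p = 0.04), and Hspb1, another small heat shock protein, rose by 1.65 ± 0.42 (adjusted p = 0.0585). These were the 3 of 20 heat shock genes called, with a list median of 0.03, and Cryab alone was called without replicate 2 of 24 h. Calr, a calcium-binding chaperone of the endoplasmic reticulum, was the 1 of 28 genes of that compartment called (1.54 ± 0.27, adjusted p = 0.00532), with an adjusted p of 0.1 without replicate 1 of 24 h.

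**Figure D4:**
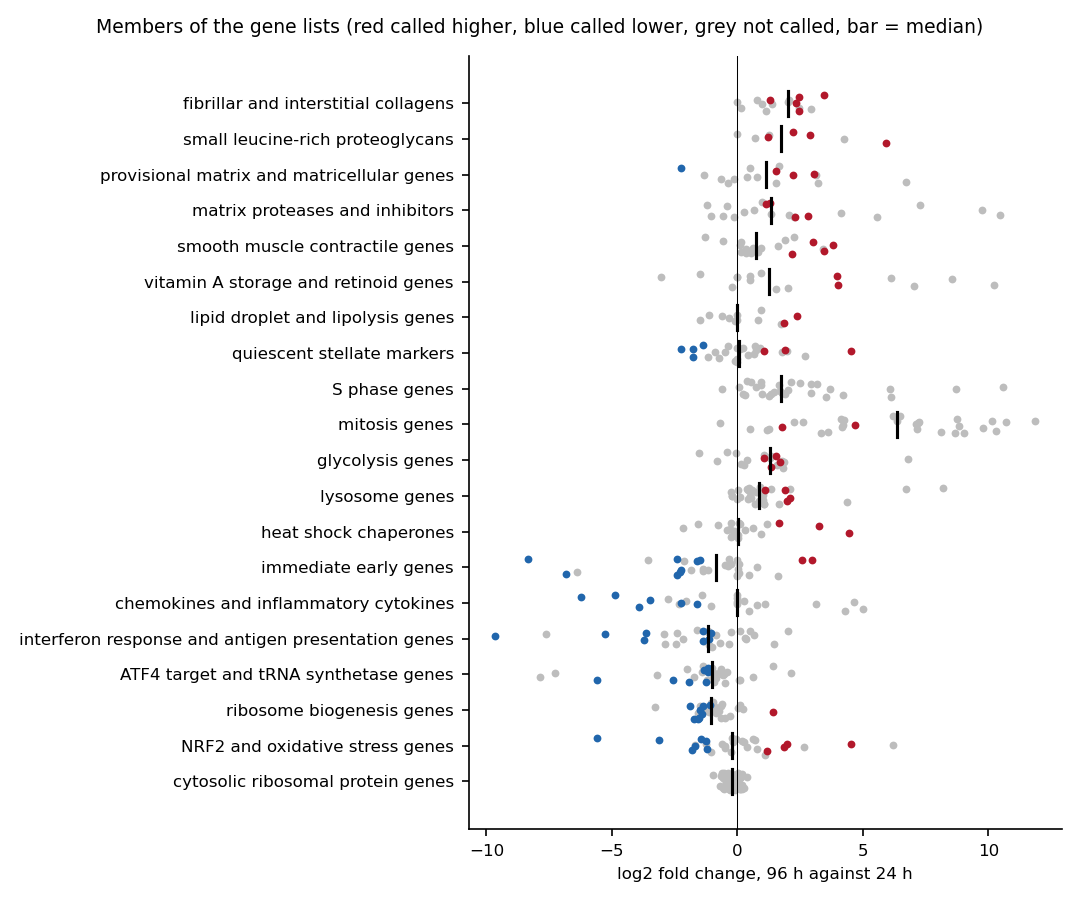
Each point is a gene of 1 of 20 lists, placed by its log2 fold change of 96 h against 24 h, with the median as a bar. The collagen list has its median at 2.01 and 5 red points of genes called higher, and the lists of ATF4 targets and ribosome biogenesis have theirs at -1.02 and -1.05 with 7 and 8 blue points of genes called lower.

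Of 23 chemokines and cytokines tested 6 were lower and none higher by edgeR, and DESeq2 called 7 lower and 2 higher. The list's median log2 fold change was 0. Cxcl1, a neutrophil attractant, was at 1299 and 774 CPM at 24 h and at 27, 34.8 and 43.3 CPM at 96 h, and fell by 4.88 on the log2 scale (SE 0.45, adjusted p = 3.09e-05). Cxcl2, its close relative, was at 558 and 565 CPM at 24 h and at 15.5, 3.66 and 4.04 CPM at 96 h, and fell by 6.23 (SE 0.64, adjusted p = 5.64e-05). Ccl2, the main attractant of monocytes, was at 982 and 905 CPM at 24 h and at 78.6, 92 and 80.7 CPM at 96 h, and fell by 3.49 (SE 0.30, adjusted p = 1.71e-05). The time points lay far apart for all 3, and the 96 h levels were also below the means of uncultured cells, 395 ± 46 CPM for Cxcl1, 90.2 ± 10.2 CPM for Cxcl2 and 187 ± 47 CPM for Ccl2 (SD, n = 2). Ccl7, another monocyte attractant, fell by 3.91 (SE 0.40, adjusted p = 5.64e-05).

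Cxcl12, which HSCs make in the resting liver and which holds CXCR4-bearing cells, was at 4777 and 5115 CPM at 24 h and at 918, 1148 and 1069 CPM at 96 h, and fell by 2.24 (SE 0.20, adjusted p = 1.71e-05). The sixth gene was Cxcl16 (adjusted p = 0.0937). The calls of Cxcl1, Cxcl2, Ccl2, Ccl7 and Cxcl12 held without any 1 of the 5 libraries. Il6, an inflammatory cytokine, was at 0 in all samples but replicate 3 of 96 h (2.36 CPM). Relb, an NF-kB subunit, went from 73.8 and 56.7 CPM to 11.2, 1.54 and 21.6 CPM and fell by 2.51 (SE 0.63, adjusted p = 0.0519), with an adjusted p of 0.2 without replicate 2 of 24 h.

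Cxcl1 and Cxcl2 lie close together on chromosome 5, and the 150 bases before their starts are shown because their falls were among the largest and both hold the same overlapping pair of NF-kB motifs, in capitals (RefSeq, GRCm38.p6, plus strand). The motifs were searched after the values were seen.
Cxcl1: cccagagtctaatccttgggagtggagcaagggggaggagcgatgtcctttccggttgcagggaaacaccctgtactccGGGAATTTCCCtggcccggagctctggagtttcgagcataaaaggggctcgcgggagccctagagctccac
Cxcl2: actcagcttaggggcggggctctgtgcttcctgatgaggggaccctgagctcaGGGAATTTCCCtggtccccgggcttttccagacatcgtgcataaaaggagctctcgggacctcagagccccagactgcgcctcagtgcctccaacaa
The windows are chr5:90891095-90891244 and chr5:90903749-90903898, and the capitals begin 71 and 97 bases before the starts. The motif given by the first 10 capitals stood on either strand of the 250 bases before the start in 0.155% of the 9683 tested genes with an entry, in 2.82% of the 142 lower genes with one and in 2 of 17 genes of the chemokine list, these 2.

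Serpinb2, an inhibitor of plasminogen activators, had the largest fitted fall of the 204 lower genes. It was at 64.6 and 118 CPM at 24 h and at 0 in all 3 samples at 96 h, at least 141-fold lower with 3 counts per library as the floor (edgeR adjusted p = 5.64e-05). It had averaged 3.51 ± 3.55 CPM in uncultured cells (SD, n = 2) and 321 ± 50 CPM at 18 h (SD, n = 3). Podxl, an anti-adhesive sialomucin, was at 55.1 and 52.3 CPM at 24 h and at 0 at 96 h, at least 83-fold lower (adjusted p = 0.0106).

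Immediate early genes, which are transcribed within minutes of a stimulus, were lower in 8 and higher in 2 of 30 cases (median -0.84). Atf3, a stress-induced repressor, was at 44.8 and 65 CPM at 24 h and at 0, 0 and 1.18 CPM at 96 h, and fell by 6.82 (SE 0.77, adjusted p = 0.00013). Nr4a2, an orphan nuclear receptor, was at 5.79 and 10.8 CPM at 24 h and at 0 in all 3 samples at 96 h, at least 12.8-fold lower (adjusted p = 0.000498). Klf6, a zinc finger factor induced early in HSC activation, went from 729 and 922 CPM to 162, 233 and 130 CPM and fell by 2.24 (SE 0.28, adjusted p = 0.000332). Klf4 fell by 2.42 (SE 0.46, adjusted p = 0.00839), with an adjusted p of 0.14 without replicate 2 of 24 h. The remaining lower genes were Jun, Myc, Klf2 and Ier5, with log2 fold changes of -1.60, -2.41, -2.27 and -1.49. Jun, Klf2 and Ier5 were called whichever library was left out, and Myc in 1 of those 5 fits.

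The 2 rising members were Ier3, a survival gene, from 254 and 136 CPM to 1616, 1335 and 1681 CPM (2.99 ± 0.42, adjusted p = 0.000835), and Fos, the AP-1 subunit, from 2.15 and 2.57 CPM to 14.6, 16 and 12.3 CPM (2.57 ± 0.42, adjusted p = 0.00312). Fos stayed far below its uncultured mean of 2738 CPM.

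Genes of interferon response and antigen presentation fell as well, 8 of 31 being lower and none higher (median -1.16). Of the 31, 19 had non-overlapping lower samples, against 16% of all genes tested. H2-D1, a heavy chain of class I major histocompatibility complex, went from 1459 and 1312 CPM to 488, 605 and 513 CPM and fell by 1.37 (SE 0.16, adjusted p = 0.000188). H2-D1, H2-K1 and H2-Q7 are near-identical genes whose reads the counting may have split. Ifit1, an interferon-induced inhibitor of viral translation, was at 22.1 and 19.1 CPM at 24 h and at 0 at 96 h, at least 31.8-fold lower (adjusted p = 0.0505). It was not called when any 1 library was left out. Rsad2, the antiviral viperin, was at 5.58 and 14.4 CPM at 24 h and at 0.86, 0 and 0 CPM at 96 h, a ratio of 54.1 with a 95% counting interval of 18.1 to 265 (adjusted p = 0.0296). Oasl2, an oligoadenylate synthetase-like gene, fell by 3.72 (SE 0.86, adjusted p = 0.0331), and the other lower members were Irf7, Irf1, B2m and H2-K1. Outside the list, H2-Q7 fell by 2.89 (SE 0.34, adjusted p = 0.000212) and Parp14, an interferon-induced ADP-ribosyltransferase, by 2.69 (SE 0.61, adjusted p = 0.0297). The list held 2 called genes without replicate 2 and 3 without replicate 1 of 24 h.

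Genes of the amino acid response, which the factor ATF4 drives when amino acids or protein folding are limiting, were 7 of 33 lower and none higher (median -1.02). Slc7a11, the cystine transporter, was at 28.8 and 42.8 CPM at 24 h and at 0.574, 0.193 and 1.35 CPM at 96 h, and fell by 5.59 (SE 1.26, adjusted p = 0.0278), against 1.38 ± 1.60 CPM in uncultured cells (SD, n = 2). Its adjusted p was 0.16 without replicate 2 of 24 h. Slc7a5, the large neutral amino acid transporter, went from 92 and 140 CPM to 17.5, 17.5 and 23.4 CPM and fell by 2.57 (SE 0.33, adjusted p = 0.000427). Ddit3 (ENSMUSG00000025408, which overlaps a second entry of that symbol), the stress factor CHOP, fell by 1.94 (SE 0.38, adjusted p = 0.0105), with an adjusted p of 0.17 without replicate 1 of 24 h. Atf4 itself fell by 1.32, Slc3a2, the partner chain of both transporters, by 1.25, and the leucine and threonine tRNA synthetases Lars and Tars by 1.18 and 1.16. Without replicate 2 of 24 h, 3 members were called. Cebpg, a partner of ATF4, fell by 2.59 (SE 0.72, adjusted p = 0.0868), with an adjusted p of 0.47 without replicate 2 of 24 h.

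The promoter of Slc7a11 is shown because it had the largest fall among the 7 called genes of the list and its 150 bases before the start (chr3:50443614-50443763, minus strand, RefSeq, GRCm38.p6) hold the amino acid response letters TGATGCAA once on each strand, TTGCATCA being the other strand, in capitals.
Slc7a11: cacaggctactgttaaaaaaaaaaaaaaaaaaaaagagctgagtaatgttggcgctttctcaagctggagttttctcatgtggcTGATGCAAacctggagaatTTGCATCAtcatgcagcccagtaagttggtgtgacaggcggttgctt
The letters begin 66 and 47 bases before the start. In the 250 bases before the start they were found in 26.9% of the 26 list members with an entry and in 0.692% of the 9683 tested genes with one. The list was made of known ATF4 targets, so its share follows partly from that choice and is no support from these data. Of the 142 lower genes with an entry, 3 (2.11%) held the letters.

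Ribosome biogenesis genes, which process ribosomal RNA in the nucleolus, were lower in 8 and higher in 1 of 31 cases (median -1.05). Of the 31, 21 had non-overlapping lower samples, against 16% of all genes tested. Ncl, nucleolin, went from 1761 and 2383 CPM to 818, 624 and 651 CPM and fell by 1.57 (SE 0.17, adjusted p = 0.00013), against 314 ± 11.3 CPM in uncultured cells (SD, n = 2). Wdr43, a subunit of the small subunit processome, went from 550 and 777 CPM to 212, 146 and 186 CPM and fell by 1.87 (SE 0.25, adjusted p = 0.000629). Gnl3, nucleostemin, fell by 1.73 (SE 0.21, adjusted p = 0.000319). Bysl, also needed for the small subunit, was the 1 member that rose (1.44 ± 0.33, adjusted p = 0.0331), and its adjusted p was 0.36 without replicate 2 of 24 h. The list held 5 lower genes without that sample.

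Oxidative stress genes split into 4 higher and 7 lower of 30. Mt2, a metal-binding metallothionein, went from 643 and 565 CPM to 51.6, 105 and 53.7 CPM and fell by 3.10 (SE 0.39, adjusted p = 0.000369). Gclc, the rate-limiting enzyme of glutathione synthesis, and Hmox1, heme oxygenase, fell by 1.80 (SE 0.39, adjusted p = 0.0218) and 1.24 (SE 0.29, adjusted p = 0.0394). Besides Sod3, the higher genes included Me1, an NADPH-making malic enzyme (2.00 ± 0.35, adjusted p = 0.00472), and Gpx1, glutathione peroxidase (1.86 ± 0.36, adjusted p = 0.00951). The list held 1 higher and 3 lower genes without replicate 2 of 24 h.

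Signalling genes of the TGF-beta superfamily were called in both directions. Of 27 genes of the TGF-beta branch, 2 were higher and 3 lower. Ltbp4, which stores latent TGF-beta in the matrix, went from 98.3 and 121 CPM to 14.1, 16 and 8.76 CPM and fell by 3.09 (SE 0.31, adjusted p = 5.64e-05), and this call held without any 1 of the 5 libraries. Tgfbi, a secreted target of the pathway, and Inhba, which encodes activin A, fell by 2.54 (SE 0.44, adjusted p = 0.00484) and 1.59 (SE 0.27, adjusted p = 0.00451). Eng, an accessory receptor, rose by 1.31 ± 0.35 (adjusted p = 0.0739) and was not called when any 1 library was left out. Lrrc32, which displays latent TGF-beta on the cell surface, rose by 1.23 ± 0.29 (adjusted p = 0.0394) and was not called without either sample of 24 h. In the BMP branch Bmp2 fell by 1.74 (SE 0.27, adjusted p = 0.00239) and Bmp6 was at 8.8 and 9.9 CPM at 24 h and at 0 at 96 h, at least 14.4-fold lower (adjusted p = 0.0043), while Id3, a target gene of the branch, rose by 1.22 ± 0.34 (adjusted p = 0.0834) and was not called when any 1 library was left out. Jag1, a Notch ligand, fell by 2.05 (SE 0.34, adjusted p = 0.0035).

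Gene programs that the study had defined were read in the same way. Of 142 tested genes of its program from fibrotic livers 11 were higher and 5 lower (median 1.06). Of 72 genes of its initiation program, which was chosen partly on these cultures and is no independent evidence of direction, 2 were higher and 9 lower (median -0.31). Fhl2, a LIM-domain cofactor that rose by 2.88 ± 0.63 (adjusted p = 0.0266, and 0.28 without replicate 2 of 24 h), belongs to both, as do Ccn2 and Ccl7, which fell. Without replicate 2 of 24 h the counts were 5 higher and 3 lower, and 1 higher and 4 lower.

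Many genes that changed from 24 h to 96 h had changed the other way by 18 h. The early change was taken from 18 h against 0 h, which shares no sample with 24 h or 96 h. Of the 207 genes higher at 96 h, 115 (55.6%) had been lower at 18 h than in uncultured cells and 10 had been higher, whereas 8.21% of all tested genes were lower at 18 h. Of the 204 genes lower at 96 h, 99 (48.5%) had been higher at 18 h and 24 had been lower, whereas 7.64% of all tested genes were higher at 18 h. These backgrounds are not matched for level. A mean of at least 10 CPM at 24 h or 96 h was reached by 206 of the 207 and 189 of the 204, but by 9278 of the 15138 genes tested. Shares among genes of like level were not computed. Under library size scaling, upper quartile scaling, DESeq2 and the replicate block the first share was lower, at 51.5% to 52.8%, and the second ranged from 40% to 53.9%.

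**Figure D5:**
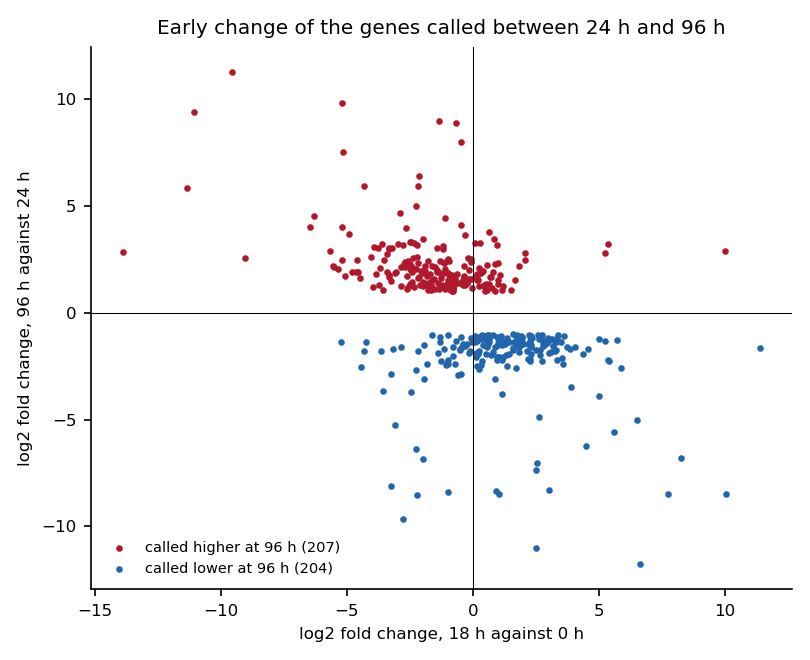
Each point is 1 of the 411 genes called between 24 h and 96 h, with its log2 fold change of 18 h against 0 h on the x axis and of 96 h against 24 h on the y axis. The 207 higher genes (red) lie mostly to the left of 0, with 115 called lower at 18 h, and the 204 lower genes (blue) mostly to the right, with 99 called higher at 18 h.

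Col3a1, Prelp, Lum, Sod3, Plin2, Lpl and Scarb2 had been lower at 18 h and were higher at 96 h, and of the ATF4 and ribosome biogenesis lists 28 of 33 and 24 of 31 members had been higher at 18 h. Acta2, Col8a1, Cryab, Akr1b3 and Ldha rose from 24 h to 96 h and were not called between 0 h and 18 h. Mmp13, Fhl2 and Slco4a1 were among the 10 genes that were higher in both intervals. Mmp13 averaged 5.52 CPM in uncultured cells and 190 CPM at 18 h before its later rise, and Slco4a1, an organic anion transporter, rose by 3.21 ± 0.59 from 24 h to 96 h (adjusted p = 0.00686, and 0.11 without replicate 1 of 24 h). Genes lower in both intervals included Rgs5, Ntm, Tgfbi, Ltbp4, Atf3, H2-D1 and Oasl2.

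Markers of other liver cells differed in level. Kupffer cell and macrophage markers summed to 46.3 and 26 CPM at 24 h and to 32.4, 23.9 and 64.9 CPM at 96 h, with 12 of 20 at 0 in all 5 samples, and 17 of 19 lymphocyte and neutrophil markers were at 0 throughout. Hepatocyte markers summed to 85.4 and 137 CPM at 24 h and to 257, 147 and 130 CPM at 96 h, and Serpina1b, a member of a near-identical family, was the 1 of 23 called (2.48 ± 0.35, adjusted p = 0.000731). Sinusoidal endothelial markers summed to 1133 and 523 CPM at 24 h and to 820, 479 and 402 CPM at 96 h (median log2 fold change -1.23). Eng held 169 and 99.6 CPM of these sums at 24 h and 355, 354 and 288 CPM at 96 h. Of 19 markers tested, 4 had non-overlapping lower samples and 1 had higher ones. Cdh5, the endothelial cadherin, was at 227 and 81 CPM and at 36.7, 0 and 5.9 CPM (adjusted p = 0.198). Stab1, which was not called, was at 24.9 and 7.33 CPM and at 60.5, 6.5 and 0 CPM. Replicate 1 was the highest of its time point for this list at both times. Bmp2 and Eng are in this list and were called, 1 lower and 1 higher, and the part of endothelial RNA in them was not tested. In bulk RNA fewer cells of a type and less RNA per cell cannot be told apart.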

How the data were processed

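Hepatic stellate cells from mice were measured by 3' RNA sequencing at 0, 3, 6, 12, 18, 24 and 96 h of culture in 19 samples. The authors deposited raw read counts per gene, and the submitters' processing notes name STAR, StringTie and mm10 (GRCm38). The counting tool, its annotation and its use of strand are not given in the sources used here. Reads from overlapping genes, antisense genes and near-identical copies may therefore be split or shared.

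The deposited counts were tested in R 4.3.3 with edgeR 4.0.16, by the quasi-likelihood F test over all 19 samples with 1 mean per time point, TMM scaling and the default filter on low counts, which left 15138 genes. Calls needed a fold change of more than 2 and a Benjamini-Hochberg adjusted p under 0.1. The SE of a log2 fold change is its size divided by the square root of F. CPM are TMM-scaled, intervals are 95% counting intervals and the floor is 3 counts per library, both covering counting error only. On data simulated for 96 h against 24 h over 14206 genes, 131 of 200 genes changed by 3 on the log2 scale were recovered (65.5%), with 7 false calls. The changed genes were drawn from well-expressed ones with the same mean at all other times. Recovery of genes at or near 0 at 24 h was therefore not simulated. DESeq2 1.42.0 was an alternative, beside other scalings, filters, thresholds, samples and blocks. The labels give 2 isolation dates, with replicates 1 and 3 sharing 1 of them, and do not say whether a replicate number is 1 mouse or a pool, so p-values measure the spread between these samples, which may be partly technical.

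Promoter letters were searched on both strands of RefSeq entries for GRCm38.p6, which 9683 tested genes matched. Named genes were the canonical genes, the 3 largest called rises and falls of each list, the 15 largest rises and falls over all genes with at least 50 CPM and no overlap, and markers above 50 CPM. Mylk, Col14a1, Bgn, Timp2, Pfkfb3, Psap, Cxcl16, Jun, Myc, Klf2, Ier5, Irf7, B2m, H2-D1, H2-K1, Atf4, Slc3a2, Lars, Tars, Ngfr and Cdk1 lie outside this rule and were named after their values were seen. The comparison, gene lists and motifs were chosen with earlier results of these data known. Same-numbered samples of 24 h and 96 h correlated in their deviations from the group means with r of 0.0547 and 0.0588, and differently numbered ones with r of -0.0588 to 0.0156. The labels tie the numbers to isolation dates. A few genes are not reported here.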

Additional observations from a re-analysis of the deposited data

How the results depend on the processing

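Counts of calls differed between tools and between sets of samples. Against 411 called genes (207 higher, 204 lower), DESeq2 gave 862 (517 and 345). With only the 5 samples edgeR gave 643, of which 480 were higher, and DESeq2, chosen after seeing the data, gave 1886 (1302 and 584). At an adjusted p below 0.05, 273 genes were called, 128 of them lower. Leaving out 1 library, genes called at 96 h against 24 h numbered 124 to 347, 61 to 170 higher and 63 to 177 lower, the lowest without replicate 2 of 24 h. The replicate block gave 205 higher and 221 lower genes, of which 182 and 185 were shared with the fit without pairing. Restricted to replicates 1 and 2 the block gave 139 and 140. The cause of these differences was not tested.

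No called gene was called in the opposite direction in any setting. Over all settings, values of named genes kept their direction and side of the threshold in 2090 cases, lost the call in 264 and gained it in 16. The 17 reversals were of genes not called. Tnfrsf12a (0.07) was -0.06 by library size, -0.02 with the replicate block and -0.05 to 0.19 with 1 library left out. Lcn2 (-0.38) was 1.38 with the block, -7.17 to 6.85 with 1 library left out, and 0.20 without replicate 1 or replicate 2 of 96 h. Hmgcs1 (0.16) was -0.15 with the block, -0.12 with the block on replicates 1 and 2, -0.01 with isolation date and -0.09 to 0.38 with 1 library left out. Il6 (5.00) was -0.11 with the block on replicates 1 and 2. With 1 library left out, Pecam1 ranged from -2.89 to 0.13, Pdgfrb from -0.10 to 0.46, Reln from -0.13 to 0.67 and Stab1 from -2.30 to 1.59.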

Other observations

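Host genes of small nucleolar RNAs, noncoding transcripts whose introns give rise to guides of ribosomal RNA modification, were examined after their values were seen. Of 16 tested, 4 were lower at 96 h than at 24 h and none was higher by edgeR, and the median of their log2 fold changes was -0.82, while 6 had been higher at 18 h than at 0 h. Snhg1 was at 302 and 413 CPM at 24 h and at 66.2, 80.8 and 91 CPM at 96 h. Gas5, a host gene whose transcript gathers in growth-arrested cells, was at 606 and 681 CPM at 24 h and at 211, 249 and 231 CPM at 96 h, a log2 fold change of -1.48. Zfas1 and Epb41l4aos were the other lower genes.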
